A study of Mus musculus with 6 samples.

Results

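The genes of the T cell receptor complex were followed in RNA from cells sorted out of mouse muscle as pericytes, the contractile cells that wrap capillaries. The members were the 10 rows of the gene table named Trac, Trbc1, Trbc2, Cd3d, Cd3e, Cd3g, Cd247, Cd4, Cd8a and Lck, out of 53715 genes, and all 10 were among the 26559 genes kept for testing. In 3 wild-type C57BL/6J mice, male and 14 weeks old, electrical stimulation had driven the lower leg muscles through 40 contractions in about 10 minutes, and tissue was taken 3 hours later. They were set against 3 sham mice of the same strain, genotype, sex and age that had received no stimulation. In both groups the gastrocnemius-soleus complex was dissociated and cells positive for CD146 and negative for CD45 and CD31 were collected, and the whole RNA of each sort was made into 1 library with a stranded low-input kit. The comparison asks how these cells differ a few hours after a single bout of muscle contraction. The labels give 3 mice per group, so each library is taken as 1 animal.

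The receptor itself is a pair of chains, alpha and beta in most T cells, that binds peptide held by an MHC molecule. The chains have almost no cytoplasmic tail and signal through the CD3 gamma, delta and epsilon chains and the CD247 (zeta) chain, whose cytoplasmic motifs are phosphorylated by the kinase LCK. CD4 and CD8 bind MHC class II and class I and bring LCK to the engaged receptor. T cells carry CD45 on their surface, which the gate of this sort was set to leave out.

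Libraries held 17520727 to 23709592 estimated reads. Levels are given in CPM, which are counts scaled to library size by the TMM method. Pericyte markers were present in every library. Rgs5, the highest of 12 listed, had 72.5, 92.8 and 187 CPM in stimulated libraries and 172, 337 and 173 CPM in sham libraries. Vtn, another of the 12, had 3.99 to 17.7 CPM. Lowest were Higd1b, with 0.246 to 1.57 CPM, and Ndufa4l2, with 0.158 to 8.07 CPM. Mcam, which encodes the selected antigen CD146, had 24.3, 30.8 and 54.1 CPM in stimulated libraries and 39.1, 105 and 64.0 CPM in sham libraries. Ptprc, which encodes CD45, was present as well, at 1030, 1040 and 989 CPM in stimulated libraries and 814, 194 and 863 CPM in sham libraries. Pecam1, which encodes CD31, stood at 384, 429 and 577 CPM in stimulated libraries and 524, 1280 and 751 CPM in sham libraries. Both antigens excluded by the gate were thus transcribed in the sorted material. Sham replicate 2 stood apart: it had the least Ptprc and the most Pecam1 of the 6 libraries, and it was the lowest library for 9 of the 10 receptor complex genes and for 21.4% of all tested genes. Fold changes of the members that rest on it, and medians of the lists, are given with and without it. Most other values, the ratios among them, use all 6 libraries.

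All 10 receptor complex genes had a higher point estimate in stimulated than in sham libraries, and none passed the test. In 7 of 10 every stimulated library lay above every sham library, against 6.12% of all tested genes. The log2 fold changes ran from 0.47 for Cd247 to 1.66 for Cd3e with a median of 1.25, while the median of all tested genes was -0.02. After edgeR's quasi-likelihood test with Benjamini-Hochberg adjustment over all genes, 0 of 10 members were below 0.05, as were 0.0% of all genes. Before adjustment 5 of 10 had p under 0.05, against 2.64% of all tested genes that did so in the same direction. A positive point estimate was found for 48.0% of all tested genes. Without sham replicate 2, all 10 estimates stayed positive, and the median was 0.82, against 0.01 for all tested genes. Then 6 of 10 had an unadjusted p under 0.05, against 1.97% of genes in the same direction. DESeq2 and limma voom also called 0 of 10 members after adjustment, where DESeq2 called 0.373% of genes as higher. Before adjustment 6 of 10 members were under 0.05 in each, and the share of all genes was not taken at that threshold. Because the libraries are bulk RNA, fewer cells of a type and less RNA per cell cannot be told apart in any of these values.

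**Figure D1:**
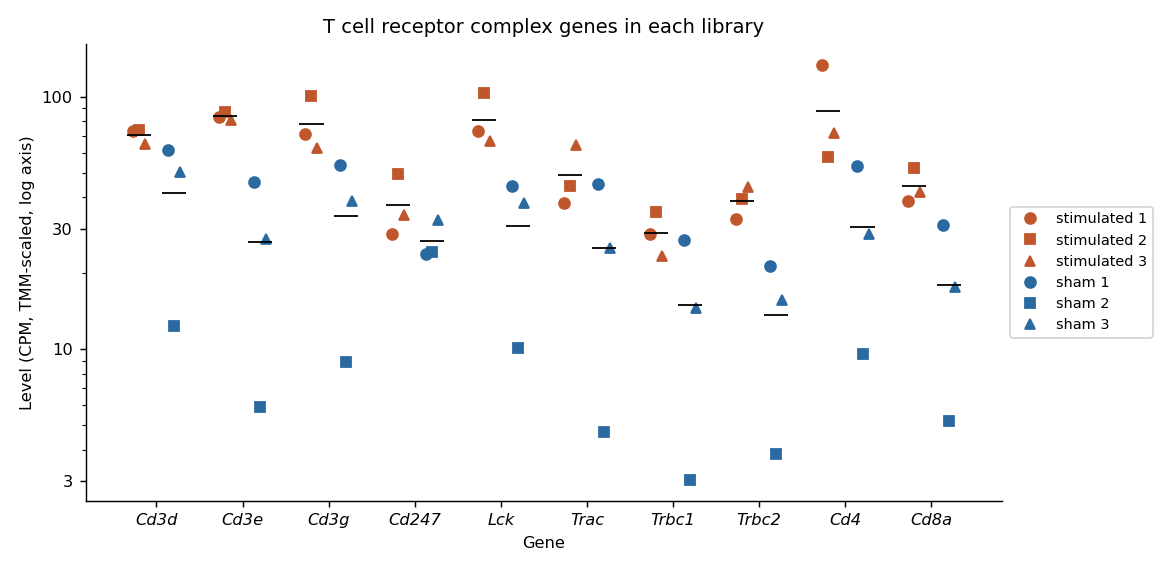
Level of each receptor complex gene in each of the 6 libraries, in CPM on a log axis; stimulated libraries (orange) are left of sham libraries (blue), marker shape gives the replicate and black lines are group means. Sham replicate 2 lies far below the other libraries for every gene except Cd247, whose 6 values sit between 23.9 and 49.3 CPM.

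Trac, the single constant region of the alpha chain (chromosome 14: 54220521 to 54224206, plus strand, GRCm38), had 37.9, 44.5 and 64.5 CPM in stimulated libraries, against 45.3, 4.71 and 25.2 CPM in sham libraries. Sham replicate 1 lay inside the stimulated range, so the groups overlapped. The log2 fold change was 0.96 (SE 0.63; edgeR quasi-likelihood, Benjamini-Hochberg adjusted p = 0.857). It moved with the sham libraries left in, being 0.49 without sham replicate 2 and 1.71 without sham replicate 1.

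The beta chain has a pair of constant regions, Trbc1 (chromosome 6: 41538218 to 41539881) and Trbc2 (chromosome 6: 41546730 to 41548352), both on the plus strand of GRCm38 and 6849 bases apart; a T cell uses one of them. Their coding parts are near copies: of 518 aligned coding bases in GENCODE mouse release 21, 23 differ (95.6% identity) and the first 259 are the same in both. Of the 31-base words of Trbc1, 45.4% also occur in Trbc2. The stretch from coding base 400 to 489 holds 14 of the differing bases and is shown because only such stretches can tell a read of one gene from a read of the other; capitals mark the bases that differ.
Trbc1: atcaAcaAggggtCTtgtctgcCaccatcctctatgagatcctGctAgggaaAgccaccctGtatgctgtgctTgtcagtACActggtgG
Trbc2: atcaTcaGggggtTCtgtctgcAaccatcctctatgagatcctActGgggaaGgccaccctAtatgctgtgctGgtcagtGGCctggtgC

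Trbc2 had 32.8, 39.3 and 43.8 CPM in stimulated libraries, against 21.3, 3.85 and 15.6 CPM in sham libraries. The groups did not overlap, with the lowest stimulated library above sham replicate 1. This gave a log2 fold change of 1.51 (SE 0.51; edgeR quasi-likelihood, Benjamini-Hochberg adjusted p = 0.617) and 1.08 without sham replicate 2. Trbc1 had 28.6, 35.0 and 23.3 CPM in stimulated libraries, against 27.2, 3.03 and 14.6 CPM in sham libraries. Here sham replicate 1 lay within the stimulated range. The log2 fold change of Trbc1 was 0.95 (SE 0.61; edgeR quasi-likelihood, Benjamini-Hochberg adjusted p = 0.849), 0.48 without sham replicate 2 and 1.71 without sham replicate 1. The Trbc1 to Trbc2 ratio was 0.87, 0.891 and 0.531 in stimulated libraries, against 1.28, 0.789 and 0.936 in sham libraries (two-sided exact permutation p = 0.4, where 0.1 is the smallest that 3 against 3 can give). Since reads from the shared stretches were divided between the copies by estimation, the single values of Trbc1 and Trbc2 are uncertain.

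The 3 CD3 genes lie side by side on chromosome 9 of GRCm38. Cd3g (44969572 to 44980431, minus strand) and Cd3d (44981786 to 44987339, plus strand) start 1355 bases apart and run away from each other, and Cd3e (44998740 to 45009627, minus strand) ends 11401 bases beyond the end of Cd3d. Cd3e encodes the epsilon chain, which pairs with gamma and with delta. It had 83.0, 87.3 and 80.7 CPM in stimulated libraries, against 46.1, 5.9 and 27.4 CPM in sham libraries, and had the largest fold change of the members. The stimulated values were close together and the groups did not overlap. Its log2 fold change was 1.66 (SE 0.58; edgeR quasi-likelihood, unadjusted p = 0.0184, Benjamini-Hochberg adjusted p = 0.629), and 1.20 (SE 0.29) without sham replicate 2.

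Cd3g, the gamma chain, had 71.2, 101 and 62.6 CPM in stimulated libraries, against 53.6, 8.88 and 38.8 CPM in sham libraries. The groups did not overlap, though stimulated replicate 3 and sham replicate 1 were near each other. Its log2 fold change was 1.21 (SE 0.54; edgeR quasi-likelihood, Benjamini-Hochberg adjusted p = 0.711), and 0.77 without sham replicate 2. Cd3d, the delta chain, had 73.2, 73.6 and 65.3 CPM in stimulated libraries, against 61.6, 12.3 and 50.3 CPM in sham libraries. Its groups too were just apart, with the smallest fold change of the 3 genes. For Cd3d the log2 fold change was 0.77 (SE 0.49; edgeR quasi-likelihood, Benjamini-Hochberg adjusted p = 0.845), 0.35 without sham replicate 2 and 1.17 without sham replicate 1. The deposited Cd3d value was 1.72 to 2.18 times the reads summed over its transcripts in 5 libraries and 0.988 times them in sham replicate 2. In summed reads Cd3d had 33.2, 43.6 and 34.3 CPM in stimulated libraries, against 29.9, 12.4 and 27.9 CPM in sham libraries, again without overlap.

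The CD3 chains are assembled together, and the ratios of their transcripts were compared within each library. Cd3d stood at 0.882, 0.843 and 0.809 of the Cd3e level in stimulated libraries, against 1.34, 2.08 and 1.84 in sham libraries, where levels are CPM and so not per length (two-sided exact permutation p = 0.1, the smallest 3 against 3 can give). The groups did not overlap, with the lower ratios in stimulated libraries. From reads summed over transcripts the ratio was 0.622, 0.685 and 0.59 in stimulated libraries and 0.735, 2.28 and 1.31 in sham libraries. These groups too were apart. In reads of coding transcripts only, the ratios overlapped. Cd3d and Cd3e then had 32.4 and 32.7 CPM in stimulated replicate 1, and 29.0 and 30.3 CPM in sham replicate 1, where the ratio was lower. The retained-intron share of Cd3e, given below, was higher in stimulated libraries, but not set apart from the background of all genes. The part of this share in the ratio was not tested. Cd3g to Cd3e was 0.858, 1.15 and 0.775 in stimulated libraries, against 1.16, 1.5 and 1.41 in sham libraries, but from summed reads these groups overlapped. In deposited values Cd3e had the largest fold change of the members, so ratios of other members to it lean lower in stimulated libraries.

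Cd247 encodes the zeta chain, which carries most of the signalling motifs of the complex and is also used by natural killer cells with their Fc receptor. It lies on chromosome 1 (165788681 to 165877277, plus strand, GRCm38). Cd247 had 28.6, 49.3 and 33.9 CPM in stimulated libraries, against 23.9, 24.2 and 32.6 CPM in sham libraries. It differed from the other members in one respect: sham replicate 2 was not low. In that library Cd247 stood at 0.855 of the mean of the other sham libraries, while the other 9 members stood at 0.134 to 0.246 of it. In summed reads Cd247 stood at 0.801 and Cd3d at 0.431, with the other 8 at 0.13 to 0.25. The log2 fold change was 0.47 (SE 0.28; edgeR quasi-likelihood, Benjamini-Hochberg adjusted p = 0.825) and 0.22 without stimulated replicate 2, and the groups overlapped. The Cd247 to Cd3e ratio was 0.345, 0.565 and 0.419 in stimulated libraries, against 0.518, 4.09 and 1.19 in sham libraries.

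The distance of each member from the mean profile of the others gave the same picture as a description. It was measured as the root mean square difference of centred log2 CPM over the 6 libraries. Cd247 lay 0.99 away, and the other 9 members lay 0.15 (Cd8a) to 0.49 (Cd4) away.

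The promoters of Cd3e and Cd247 are shown because these genes were the members with the largest and the smallest fold change, and those of Lck because its start sites are compared below. Each window runs from 250 bases before to 50 after the transcription start in RefSeq on GRCm38.p6, whose promoter table holds 6 of the 10 members. Capitals mark matches on either strand to AGGAAG (a core bound by ETS factors), TGTGGT (a core bound by RUNX factors) and CAGGTG (an E-box); no matches overlap.
Cd3e (chr9:45009562-45009861, minus strand): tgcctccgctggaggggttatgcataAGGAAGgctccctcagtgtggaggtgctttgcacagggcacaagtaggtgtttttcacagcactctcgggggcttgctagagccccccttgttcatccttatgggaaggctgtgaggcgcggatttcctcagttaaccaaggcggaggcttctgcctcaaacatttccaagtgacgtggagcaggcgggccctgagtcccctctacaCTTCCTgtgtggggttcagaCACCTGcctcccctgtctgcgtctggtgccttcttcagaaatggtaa
Cd247 (chr1:165788431-165788730, plus strand): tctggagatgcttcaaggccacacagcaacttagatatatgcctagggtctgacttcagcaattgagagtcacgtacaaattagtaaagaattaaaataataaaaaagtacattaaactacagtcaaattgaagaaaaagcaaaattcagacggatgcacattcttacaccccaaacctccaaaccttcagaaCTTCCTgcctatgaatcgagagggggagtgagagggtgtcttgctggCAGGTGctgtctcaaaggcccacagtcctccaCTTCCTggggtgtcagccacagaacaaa
Both windows hold 2 matches to AGGAAG and 1 to CAGGTG, and neither holds TGTGGT. Of the 32851 windows in the table, 35.4% hold AGGAAG, 16.8% hold TGTGGT and 20.2% hold CAGGTG.

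Among the coreceptors, Cd4 (chromosome 6: 124864692 to 124888221, minus strand, GRCm38) marks helper and regulatory T cells and is also found on some myeloid cells. It had 134, 57.9 and 72.0 CPM in stimulated libraries, against 53.3, 9.53 and 28.7 CPM in sham libraries. Stimulated and sham values did not overlap, and stimulated replicate 1 was far above the rest. The log2 fold change was 1.53 (SE 0.57; edgeR quasi-likelihood, Benjamini-Hochberg adjusted p = 0.647) and 1.11 without sham replicate 2.

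The high Cd4 value of stimulated replicate 1 was not found in the reads. The deposited gene value was 2552 there while the reads assigned to Cd4 transcripts summed to 870, a ratio of 2.93, against 1.2 to 1.59 in the other 5 libraries. A noncoding Cd4 transcript of 273 bases held 60.8 of these reads at an effective length of 32.1 bases, and so 88.2% of the gene's TPM, the level per length given by Salmon. From summed reads Cd4 had 45.4, 49.4 and 45.7 CPM in stimulated libraries, against 33.0, 6.44 and 18.5 CPM in sham libraries. On that scale the stimulated libraries were alike and still above every sham library, with a log2 fold change of 1.27 (SE 0.46).

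Cd8a, the CD8 alpha chain of cytotoxic T cells (chromosome 6: 71373427 to 71379173, plus strand, GRCm38), had 38.7, 52.1 and 41.9 CPM in stimulated libraries, against 31.1, 5.2 and 17.6 CPM in sham libraries. Every stimulated value was above every sham value. For Cd8a the log2 fold change was 1.30 (SE 0.52; edgeR quasi-likelihood, Benjamini-Hochberg adjusted p = 0.668), 0.88 without sham replicate 2 and 1.95 without sham replicate 1. The Cd4 to Cd8a ratio from summed reads was 1.16, 0.963 and 1.1 in stimulated libraries and 1.03, 1.23 and 1.1 in sham libraries (two-sided exact permutation p = 0.6) and thus lay between 0.963 and 1.23 in all 6 libraries, sham replicate 2 included. From the deposited values the same ratio was 3.47 in stimulated replicate 1 and 1.11 to 1.83 in the other libraries.

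Lck encodes the kinase that starts signalling at the receptor. It lies on chromosome 4 (129548344 to 129573641, minus strand, GRCm38) and is known in mouse to use a distal promoter and a proximal one, the proximal being mainly active in thymocytes. Lck had 72.9, 104 and 67.0 CPM in stimulated libraries, against 44.4, 10.1 and 37.9 CPM in sham libraries. All stimulated libraries lay above all sham libraries. For Lck the log2 fold change was 1.40 (SE 0.48; edgeR quasi-likelihood, unadjusted p = 0.0174, Benjamini-Hochberg adjusted p = 0.625) and 0.99 without sham replicate 2.

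The distal and proximal starts of Lck are 15250 bases apart, and their windows differ in the motifs they hold, marked in capitals as above.
Lck distal (chr4:129573592-129573891, minus strand): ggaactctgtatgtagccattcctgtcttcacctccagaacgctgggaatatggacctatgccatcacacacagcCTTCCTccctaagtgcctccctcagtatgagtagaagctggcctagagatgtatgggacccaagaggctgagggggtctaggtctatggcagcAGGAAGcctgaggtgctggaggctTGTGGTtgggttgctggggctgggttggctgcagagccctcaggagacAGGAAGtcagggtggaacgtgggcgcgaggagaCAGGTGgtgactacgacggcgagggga
Lck proximal (chr4:129558323-129558622, minus strand): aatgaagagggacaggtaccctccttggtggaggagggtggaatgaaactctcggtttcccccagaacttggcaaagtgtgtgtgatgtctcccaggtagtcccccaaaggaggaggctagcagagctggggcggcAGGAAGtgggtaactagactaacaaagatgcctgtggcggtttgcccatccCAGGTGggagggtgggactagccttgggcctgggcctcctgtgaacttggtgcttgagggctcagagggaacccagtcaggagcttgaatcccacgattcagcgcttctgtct
The distal window holds 3 matches to AGGAAG, 1 to TGTGGT and 1 to CAGGTG; the proximal one holds 1 to AGGAAG, 1 to CAGGTG and none to TGTGGT.

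Of the reads assigned to full-length coding Lck transcripts, the distal start took 83.8, 91.8 and 85.6% in stimulated libraries and 91.7, 37.5 and 93.6% in sham libraries. In sham replicate 2 this was 33 of 88 reads (95% Wilson interval 28.1 to 47.9%), while the intervals of the other 5 libraries lay between 80.7 and 95.5%. These intervals cover counting error only. The transcripts overlap and their reads were divided by estimation, which the intervals leave out. By these estimates the distal start took most of the full-length coding reads in every library but sham replicate 2. That library was low in distal and not in full-length proximal reads. It had 55 of the latter, against 102, 73 and 116 in stimulated and 52 and 28 in the other sham libraries. A coding transcript of 368 bases at the proximal start was not counted. It had 59.0, 90.3 and 76.9 reads in stimulated libraries and 22.0, 6.24 and 28.9 in sham libraries, lowest in sham replicate 2.

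The members were also taken apart by transcript type, since a total RNA library holds unspliced RNA. Retained-intron transcripts took 38.8, 39.0 and 35.1% of Cd3e reads in stimulated libraries, against 25.6, 30.1 and 24.7% in sham libraries. The groups did not overlap for Cd3e, alone among the 7 members with such a transcript. Over all genes with at least 50 reads in every library 9.15% did so in this direction. A lone member among 7 is near that share, so the Cd3e difference was not set apart from the background of all genes. Lck had 41.1, 46.8 and 34.5% of its reads there in stimulated libraries and 38.1, 45.4 and 37.6% in sham libraries. Lck was thus as rich in these transcripts as Cd3e, and its groups overlapped.

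Counting only reads of coding transcripts left the Cd3e groups apart, by less. Cd3e then had 32.7, 38.8 and 37.7 CPM in stimulated libraries, against 30.3, 3.81 and 16.0 CPM in sham libraries, a fold of 2.18 between group means. Of the 10 members, 6 did not overlap in coding reads (Cd3d, Cd3e, Lck, Trbc2, Cd4 and Cd8a), against 4.65% of tested genes with such reads. From reads summed over all transcripts 6 did not overlap either, against 6.08% of tested genes.

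**Figure D2:**
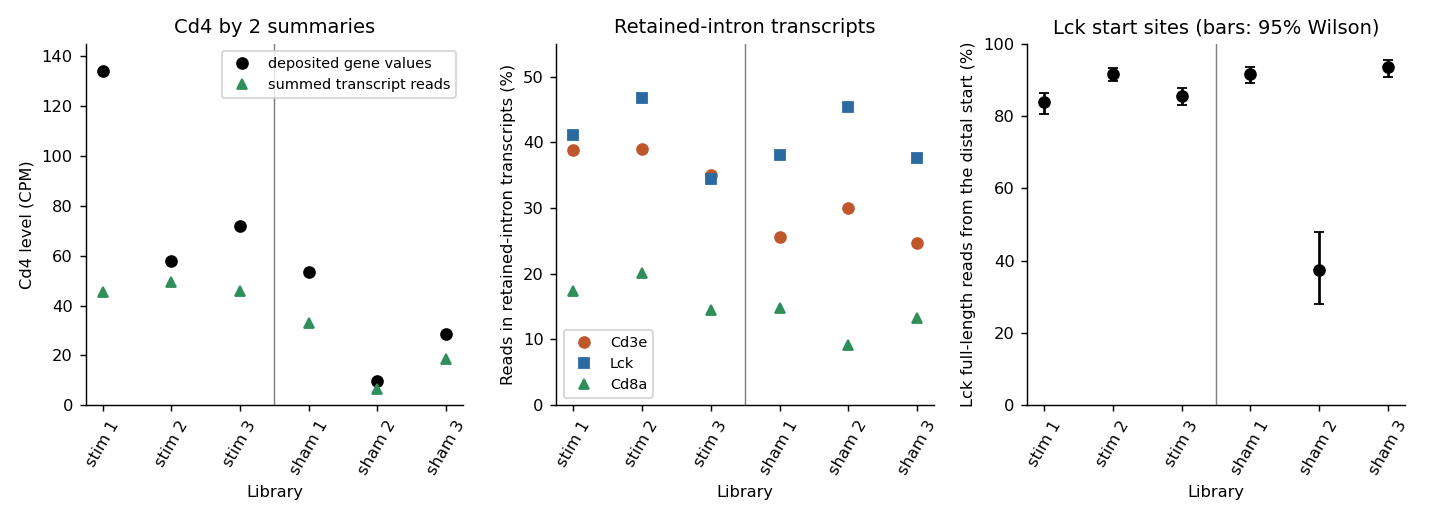
Left, Cd4 in CPM from deposited gene values and from summed transcript reads; middle, percent of reads in retained-intron transcripts of Cd3e, Lck and Cd8a; right, percent of full-length Lck reads from the distal start with 95% Wilson intervals, each for 3 stimulated libraries left of 3 sham libraries. The 134 CPM of Cd4 in stimulated replicate 1 is 45.4 CPM in summed reads, the Cd3e shares of stimulated libraries (35.1 to 39.0%) lie above those of sham libraries, and sham replicate 2 has the single low distal share, 37.5%.

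Levels can be ordered between genes only per length, in TPM of the coding transcripts. In stimulated libraries Trac led with 6.44 ± 1.92 TPM, followed by Trbc2 at 3.12 ± 0.433, Cd3g at 2.43 ± 0.426, Trbc1 at 2.15 ± 0.323, Cd3d at 2.13 ± 0.608, Lck at 1.74 ± 0.0902, Cd3e at 1.06 ± 0.111, Cd8a at 0.512 ± 0.0182, Cd247 at 0.445 ± 0.0435 and Cd4 at 0.438 ± 0.0194 TPM (SD, n = 3 each). Neighbours in this order differed by less than the larger SD of the pair for Cd3g and Trbc1, Trbc1 and Cd3d, Cd3d and Lck, and Cd247 and Cd4. The order depended on short transcripts. A Cd3d transcript of 286 bases, with an effective length of 40 bases, took 5.41, 2.14 and 4.05% of the gene's reads but 59.7, 27.2 and 52.5% of its TPM in stimulated libraries. Counting only coding transcripts with an effective length of at least 200 bases in every library, a choice made after these values were seen, Trac had 1.53 ± 0.153, Lck 0.677 ± 0.00405 and Cd3d 0.668 ± 0.0416 TPM in stimulated libraries (SD, n = 3 each). Trbc2 then led, Trac came after Trbc1, and Lck and Cd3d lay below Cd3e. Cd8a, Cd247 and Cd4 were last under both rules. In sham libraries Trac had 4.18 ± 4.0 TPM over all its coding transcripts and 0.986 ± 0.87 TPM over the long ones, and Cd4 had 0.217 ± 0.165 TPM under both rules (SD, n = 3 each). TPM was not rescaled between libraries. Over all tested genes the log2 ratio of mean TPM, stimulated to sham, had a median of -0.44, so TPM is used here only for the order of genes and CPM for the comparison of groups. In unscaled TPM, 3 of 10 members had groups that did not overlap over all transcripts (Cd3e, Lck and Trbc2), against 1.79% of tested genes, and 3 over coding transcripts (Lck, Trbc2 and Cd4), against 1.38%. Over the long coding transcripts Lck had 0.681, 0.674 and 0.674 TPM in stimulated libraries, against 0.751, 0.142 and 0.327 TPM in sham libraries. Its groups then overlapped, while Trbc2 and Cd4 kept the same transcripts and stayed apart. The share of all genes was not taken under this rule.

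**Figure D3:**
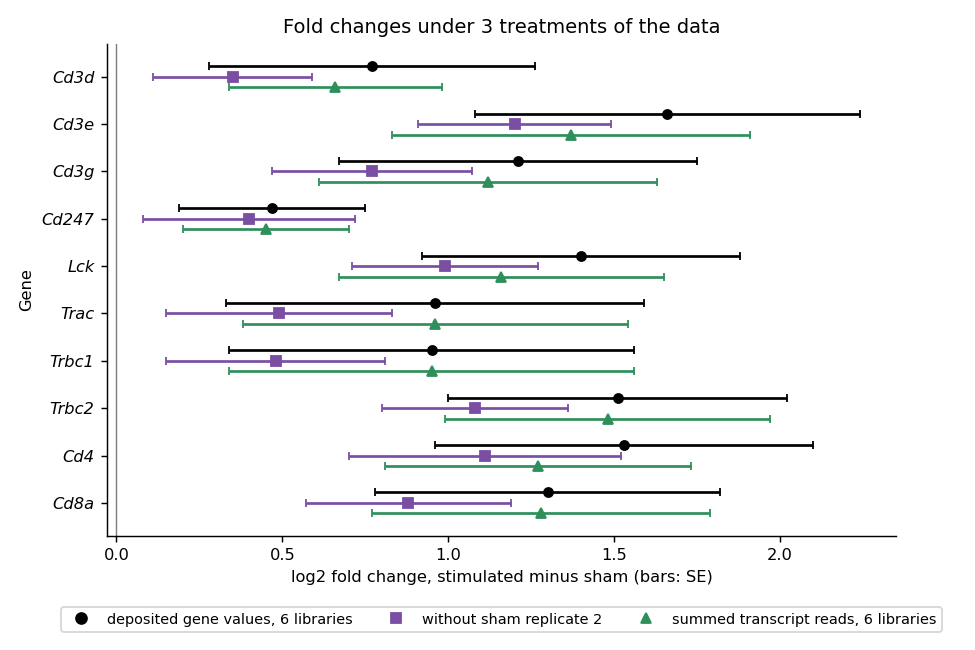
Log2 fold change of each member, stimulated minus sham, with its SE from edgeR's quasi-likelihood fit: deposited gene values in 6 libraries (circles), without sham replicate 2 (squares) and reads summed over transcripts in 6 libraries (triangles). All 30 points lie above 0, and for all 10 genes the value without sham replicate 2 is the smallest of its 3.

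The variable and joining segments of the receptor chains were counted in each library as well. Of 128 alpha variable (Trav) segments, 97, 101 and 99 had at least 1 read in stimulated libraries, against 95, 48 and 78 in sham libraries. Of 35 beta variable (Trbv) segments, 27, 25 and 26 had a read in stimulated libraries and 27, 23 and 22 in sham libraries. The counts were many and similar except where reads were few: Trav segments drew 707, 880 and 718 reads in stimulated libraries and 824, 129 and 235 reads in sham libraries. Trbv3 took the largest share of Trbv reads in all 6 libraries, at 13.1, 17.8 and 14.2% in stimulated and 13.2, 19.1 and 13.6% in sham libraries. Among 60 alpha joining segments Traj6 led in all 6 libraries, with 11.2% of reads over all of them. No Trav segment took over 5.68% of its locus in any library. Joining segments are 46 to 66 bases long and had an effective length of 3 bases in each library, so their reads are reported as counts and not as levels. Reads on near-identical segments were divided by estimation, and germline transcripts were not told apart from rearranged ones.

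The wider receptor pathway was described with lists of other genes. Of 23 genes that signal next to the receptor, 22 had a higher point estimate in stimulated libraries, against 48.0% of all tested genes. An unadjusted p under 0.05 was found for 9, against 2.64% of all tested genes in this direction. Groups did not overlap for 12, against 6.12%, and 0 passed adjustment. The median log2 fold change was 0.96 (0.68 without sham replicate 2). The same shares apply to counts of higher genes over all libraries in the lists that follow. Without sham replicate 2 the share of higher genes was not taken, and the median of all tested genes was 0.01. Lat, the membrane adaptor phosphorylated by ZAP70, had 29.0, 54.3 and 40.6 CPM in stimulated libraries, against 19.3, 6.01 and 16.5 CPM in sham libraries. The groups were apart, with a log2 fold change of 1.56 (SE 0.43, edgeR quasi-likelihood, Benjamini-Hochberg adjusted p = 0.521) and 1.22 without sham replicate 2. Zap70, the kinase that docks on the phosphorylated CD3 and zeta chains, had 17.2, 23.0 and 18.2 CPM in stimulated libraries, against 14.2, 1.9 and 8.03 CPM in sham libraries. Fyb, an adaptor of the same pathway, had a log2 fold change of 1.00 (SE 0.30). The 1 negative estimate among the 23 was that of Plcg1, a phospholipase that most cell types use, at -0.27; it rested on sham replicate 2 and was 0.04 without it, where Bcl10 (-0.05) and Malt1 (-0.15) were negative.

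Surface and costimulatory genes of T cells had a lower median. Of 15, 14 had a higher point estimate, 1 had an unadjusted p under 0.05 and 0 passed adjustment; the median was 0.67, and 0.35 without sham replicate 2. Cd8b1, the partner chain of Cd8a, had 26.2, 43.7 and 33.5 CPM in stimulated libraries, against 22.0, 3.09 and 17.1 CPM in sham libraries. Of 16 transcription factor and homing genes of the lineage, 13 were higher with a median of 0.52, and 0.08 without sham replicate 2. Foxp3, the factor of regulatory T cells, was among them, with 14.7, 15.2 and 12.6 CPM in stimulated libraries and 10.4, 1.3 and 7.56 CPM in sham libraries. Of 12 tested activation genes 9 were higher, 2 had an unadjusted p under 0.05 and 0 passed adjustment, with a median of 0.21, and -0.01 without sham replicate 2. These 2 were Il2ra and Tnfrsf9, receptors for interleukin 2 and for the 4-1BB ligand. Their log2 fold changes were 1.21 (SE 0.43) and 1.23 (SE 0.30), and 0.89 and 1.21 without sham replicate 2.

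Other lymphocytes were set beside the members. Trdc, the constant region of the delta chain in gamma-delta T cells, had 9.17, 9.71 and 6.36 CPM in stimulated libraries and 6.84, 3.3 and 7.82 CPM in sham libraries; the groups overlapped, and the median of 5 gamma-delta genes was 0.29, and -0.03 with 2 of 5 higher without sham replicate 2. Ncr1, a natural killer cell receptor, had 3.37, 3.25 and 1.46 CPM in stimulated libraries and 3.24, 3.9 and 4.46 CPM in sham libraries. The log2 fold change of Ncr1 was -0.52 (SE 0.40). Klrd1 (0.80, SE 0.42), Prf1 (0.62, SE 0.29) and Klrk1 (0.43, SE 0.32) of the same list had positive estimates. Natural killer genes as a list had a median of 0.22, with 7 of 12 higher and 0 under an unadjusted p of 0.05 in either direction. Without sham replicate 2 the list median was 0.29, with 9 of 12 higher. Sham replicate 2 was the lowest library for 3 of 5 gamma-delta genes and 3 of 12 natural killer genes, against 21.4% of all tested genes.

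B cell genes were present in all 6 libraries. Cd79a, a signalling chain of the B cell receptor, had 185, 197 and 170 CPM in stimulated libraries and 151, 32.0 and 328 CPM in sham libraries. Cd79b, another gene of the B cell list, had 101, 124 and 85.4 CPM in stimulated libraries and 58.6, 13.0 and 176 CPM in sham libraries. Sham replicate 3 was the highest library for both genes and sham replicate 2 the lowest. All 13 B cell genes had a higher point estimate, 0 had an unadjusted p under 0.05, and without sham replicate 2 the list median was -0.07 in place of 0.42. Relative to Cd79a, Cd3e stood at 0.448, 0.443 and 0.476 in stimulated libraries, against 0.305, 0.185 and 0.0835 in sham libraries (two-sided exact permutation p = 0.1, the smallest possible). Relative to Ptprc, Cd3e stood at 0.0808, 0.0843 and 0.0816 in stimulated libraries, against 0.0567, 0.0304 and 0.0318 in sham libraries (two-sided exact permutation p = 0.1), though these groups overlapped in summed reads. Cd3e had the largest fold change of the members in deposited values, so its ratios lean higher in stimulated libraries than those of other members.

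Markers of other cell types differed between the groups in their point estimates, and none passed adjustment. Neutrophil genes were higher in stimulated libraries for 7 of 7 tested, each with an unadjusted p under 0.05, against 2.64% of all tested genes. Their median log2 fold change was 1.63, and 1.71 without sham replicate 2. S100a9 had 55.3, 26.2 and 43.8 CPM in stimulated libraries, against 8.8, 5.69 and 8.77 CPM in sham libraries. Endothelial genes were lower for 10 of 10, of which 8 had an unadjusted p under 0.05 (4.41% of all tested genes did so in that direction), with a median of -1.18 (-0.74 without sham replicate 2) and a summed level of 1930 to 2990 CPM in stimulated and 3210 to 8130 CPM in sham libraries. Pericyte genes were lower for 11 of 12, with a median of -0.86 (-0.50 without sham replicate 2) and a summed level of 190 to 438 CPM in stimulated and 349 to 728 CPM in sham libraries. Summed over the 10 members, the receptor complex stood at 555 to 644 CPM in stimulated and 87.7 to 408 CPM in sham libraries. No gene of these lists was at 0 in every library. The part that cell composition has in the receptor complex values was not tested.

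**Figure D4:**
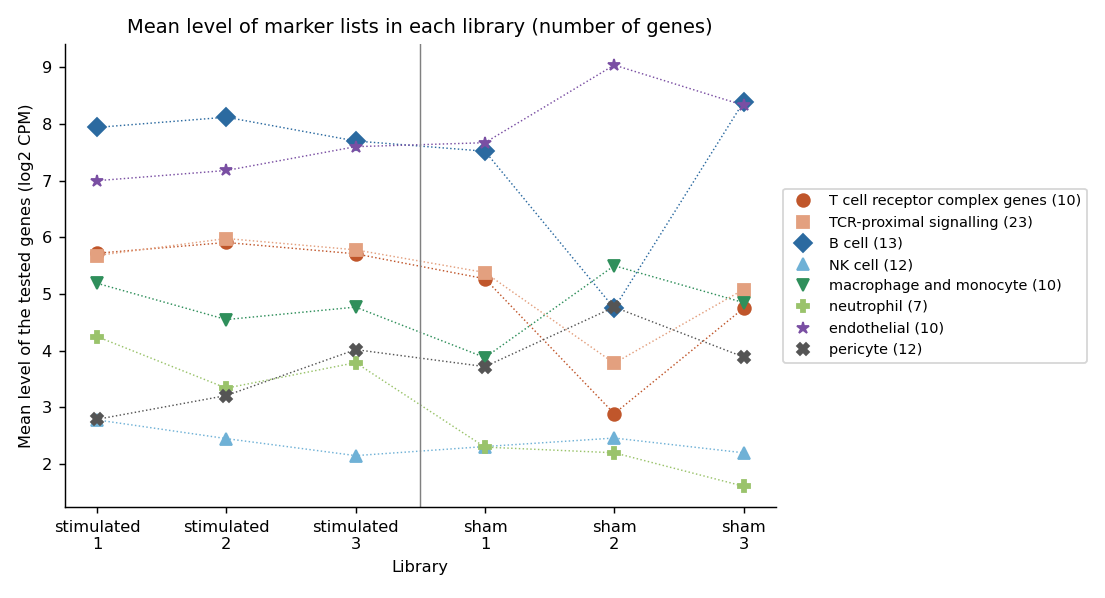
Mean log2 CPM of the tested genes of 8 lists in each library, stimulated left of sham. The receptor complex, its signalling genes and the B cell genes drop together in sham replicate 2, where endothelial genes are highest (9.04), while natural killer genes stay between 2.15 and 2.78.

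The genes whose pattern over the 6 libraries was most like the mean of the 10 members were, among 18228 genes compared, Art2b, AC147041.2, Skap1, Sit1 and Tcf7. Their root mean square distances in centred log2 CPM were 0.09, 0.111, 0.127, 0.133 and 0.137, where the median gene lay 1.1 away. Art2b encodes a surface ADP-ribosyltransferase of mouse T cells, Skap1 and Sit1 encode adaptors of receptor signalling, and Tcf7 encodes a transcription factor of the T lineage. The libraries share the low sham replicate 2, which weighs most in this distance. Ptprc ranked 69, Trdc 886 and Cd79a 1097.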

How the data were processed

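Estimated counts per gene and, per library, Salmon transcript tables with TPM, estimated count, length and effective length were deposited, per the file headers; tools credited in the submitters' processing notes are Salmon 0.8.2, Trimmomatic 0.36, bcl2fastq 2.17.1.14, edgeR and R 3.5.1, on GRCm38; how they were set is not given in those notes. Among 14096 genes with TPM above 0.1 in every library, 100.0% kept a constant ratio of deposited gene value to TPM within 1%. This held once a factor for each library was allowed, since the ratio itself differed between libraries. For each gene, values thus scale with TPM times a library factor and are not sums of reads. Results were repeated on reads summed from 135181 transcripts. Groups and replicate numbers come from sample titles.

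Gene values were rounded to whole numbers, filtered with filterByExpr (minimum count 10, total 15) and scaled by TMM. Stimulated was tested against sham with the robust quasi-likelihood test of edgeR 4.0.16 in R 4.3.3, Benjamini-Hochberg adjusted over all genes at 0.05. The test was also run on simulated counts without an outlying library, so that run does not show its power in these data. Over 14 ratios on 2 summaries each, two-sided exact permutation gave a smallest Benjamini-Hochberg adjusted p of 0.255. Alternatives were DESeq2 1.42.0, limma voom 3.58.1, RLE factors, other filters, each library left out, a replicate block and summed reads; coding reads only, TPM and TPM of long transcripts were added after the data were seen. Replicates differed by a chi-square per gene of 30.1 to 107, so none is a duplicate.

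Members and lists were chosen with earlier results of these data known. The text names all members, up to 3 genes per list by unadjusted p plus fixed ones, and the 5 most alike genes. Plcg1, Bcl10, Malt1, Rag2, Higd1b, Ndufa4l2 and the ratios shown were chosen after their values were seen. Of 17 lineage genes 16 were matched, and 1 macrophage symbol with more than 1 identifier was left out. Coordinates are from GENCODE mouse release 21. Depth was 17520727 to 23709592 estimated reads; receptor complex genes had 51 to 446 reads in sham replicate 2 and 260 to 1837 elsewhere.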

Additional observations from a re-analysis of the deposited data

How the results depend on the processing

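The receptor complex genes kept a positive fold change in every alternative run, and 0 of 10 passed adjustment in any, the lowest adjusted p being 0.139 for Cd3e with DESeq2. Their median log2 fold change was 0.82 to 1.73 when 1 library was left out and 1.14 to 1.57 in every other alternative. Over all genes, 0 passed in edgeR, where 700 higher and 1172 lower had an unadjusted p under 0.05; 227 passed with DESeq2, 109 with no filter on low counts, 3 with RLE factors, 1 with summed reads and 0 to 1 with a library left out. The cause was not tested. Members whose groups did not overlap numbered 7, and 3 in TPM of all transcripts and 3 in TPM of coding transcripts, against 1.79% and 1.38% of tested genes; TPM lowered the median gene by 0.44 on the log2 scale in stimulated libraries.

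Same-numbered libraries deviated with correlations of 0.317, -0.161 and 0.128. The sham library that deviated most like stimulated replicates 1, 2 and 3 was replicate 1, 3 and 3. With so few libraries this cannot decide whether the numbers pair them. With the replicate number as a block, 0 genes and 0 members passed and the members' median was 1.51. Read numbers limit sham replicate 2 most.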

Other observations

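All 4 markers of immature thymocytes had a positive point estimate, with a median log2 fold change of 0.61, and 0.79 without sham replicate 2. None of them passed adjustment. Dntt, the terminal transferase of developing lymphocytes, had 2.37, 2.17 and 1.72 CPM in stimulated libraries, against 0.933, 1.25 and 0.63 CPM in sham libraries, with a log2 fold change of 1.15 (SE 0.44; edgeR quasi-likelihood, Benjamini-Hochberg adjusted p = 0.668). The groups did not overlap. Rag1, a recombinase of developing lymphocytes, had 4.06, 0.936 and 3.4 CPM in stimulated libraries, against 1.16, 1.14 and 0.0 CPM in sham libraries. Its groups overlapped. Rag2, the partner of Rag1, and Ptcra, the surrogate alpha chain of the pre-T cell receptor, overlapped between the groups, both at 0.07 on the log2 scale (SE 0.40 for Rag2, 0.31 for Ptcra). Of the monocyte and macrophage list, 3 of 10 genes had a higher point estimate with all libraries and 9 of 10 without sham replicate 2. The share of all tested genes was 48.0% with all libraries. It was not taken without sham replicate 2, where the median of all tested genes was 0.01.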
